A study of Caenorhabditis elegans with 60 samples.

Results

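The 128 genes described here are the WAGO genes that lost most of their gonad 22G-RNAs in henn-1 mutants of the nematode Caenorhabditis elegans. They were chosen from 2434 loci that the deposited gonad small RNA table marks as mutator-dependent, among 21815 features in all. Loci named as pseudogenes or transposons were left out (2065 genes remained), as were genes with a mean below 10 normalized reads over the 6 gonad libraries (2025 genes remained). A gene was a member where the log2 ratio of the henn-1 mean to the wild type mean, with 1 added to each, was at or below -2, a loss of about 4-fold or more. The 1897 other genes that passed the same filters, called the other WAGO genes below, served for comparison. Another 3 genes past the ratio fell below the mean of 10.

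WAGO genes are silenced or tuned by 22G-RNAs, secondary small RNAs that RNA-dependent RNA polymerases copy from a target transcript in mutator foci and that bind worm-specific Argonautes (WAGOs). In the germline their synthesis is set off by primary small RNAs, among them piRNAs bound by the Argonaute PRG-1. HENN-1 adds a methyl group to the 3′ end of piRNAs and of some other primary small RNAs, while 22G-RNAs carry a free 3′ end. HRDE-1 is the nuclear WAGO of the germline, and WAGO-1 is a largely cytoplasmic WAGO of the germline.

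The study's 60 samples form 8 sets, of which 5 measured WAGO genes and are used here. The henn-1 groups carried henn-1(pk2295) and the wild type groups were N2, all grown on OP50 bacteria at 20 C, and 1 mutant allele was used throughout. Gonads dissected from gravid adults of 68 to 70 h gave 3 henn-1 and 3 wild type libraries each of small RNA and of mRNA. The description of the gonad small RNA samples names whole worms as the frozen material, although their source field names dissected gonads. The germline and oocyte markers summed to between 133779 and 160708 normalized units in the 6 gonad mRNA libraries, against 721 to 1697 for muscle, 455 to 568 for neuron, 79.4 to 365 for intestine and 66 to 227 for epidermis markers. These sums describe the mRNA libraries alone. Whole embryos, 52 h larvae (L4) and 68 h gravid adults gave 1 small RNA library for each genotype and stage, and another set of embryos gave 3 henn-1 and 3 wild type libraries. Wild type N2 and rde-1(ne219) animals gave 3 periodate-oxidized and 3 untreated libraries each. The untreated libraries are labelled as L4 larvae of 52 h, and the oxidized ones as gravid adults of 68 h in the source field but as L4 larvae in the description. HRDE-1 was immunoprecipitated (IP) from gravid adults carrying FLAG::hrde-1, and WAGO-1 from gravid adults carrying GFP::wago-1, which also carried mut-16::mCherry, with 1 IP and 1 input library each. Recovered depth was 4215264 to 8745475 reads per gonad small RNA library and 6311071 to 13613629 per oxidation library. The replicated embryo libraries each had 967644 to 3829632 reads, and depth is unknown for the stage, IP and mRNA libraries. Where nothing says that libraries came from separate cultures, p-values measure only the spread between these libraries, which may be technical.

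The ratio that chose the members was between -6.51 and -2.01, with a median of -2.40 in a fit of log2 values, and it is given as a description with no test. Over all 9456 features of that fit 15.9% were called lower and 42% higher (limma), from which nothing is read since the same contrast chose the members. Y34D9A.8 had the lowest ratio, with 10.96, 10.2 and 9.81 normalized reads in henn-1 gonads, against 1071, 1062 and 953 in wild type gonads. The henn-1 mean was 90.9-fold lower. exc-9, a LIM domain gene that shapes the excretory canal, had 3.65, 2.27 and 2.80 reads in henn-1 gonads, against 164, 169 and 151 in wild type gonads. gtf-2A2, which encodes part of TFIIA, a general transcription factor, had 27.8, 23.8 and 23.8 reads in henn-1 gonads, against 914, 917 and 872 in wild type gonads. R04A9.7 and F10E9.2 (log2 -5.32 each), C09G5.7 (-4.66), dot-1.2 of the DOT1 histone methyltransferase family (-4.52) and ZK909.3 (-4.46) came next. In all of these 8 genes every henn-1 library lay below every wild type one, as the plot of their levels shows.

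**Figure D1:**
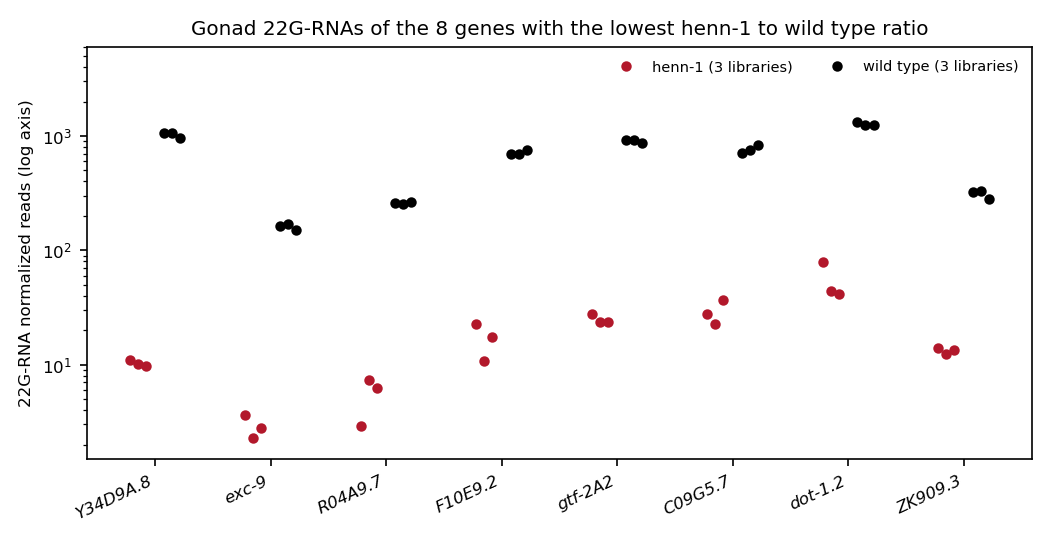
Normalized 22G-RNA reads (log axis) of the 8 members with the lowest ratio, in 3 henn-1 and 3 wild type gonad libraries; each point is 1 library. All henn-1 points lie below 100 and all wild type points above 150.

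In wild type gonads their median was 190 normalized reads (29.9 to 6442), against 248 (6.26 to 29714) for the other WAGO genes. In henn-1 gonads their median was 29.7 reads, against 198 for the other WAGO genes. F39F10.2 had the highest level of all members, with 1263, 1277 and 1279 reads in henn-1 gonads, against 6450, 6945 and 5931 in wild type gonads. The cadherin gene cdh-12 had 438, 516 and 560 reads in henn-1 gonads, against 5948, 5768 and 5531 in wild type gonads, so 11.4-fold less. Y92H12A.2, Y54G2A.19 and C46G7.3 followed with wild type means of 3186, 2061 and 1565. In sum, members took 0.405%, 0.394% and 0.403% of all WAGO signal in henn-1 gonads, against 2.25%, 2.23% and 2.21% in wild type gonads. At the boundary the ratio has no gap: sel-15 (-2.007), R04A9.9 (-2.015) and the myosin light chain gene mlc-7 (-2.017) lay just inside, and the G protein gene gpa-4 (-1.985), clec-119 (-1.982) and Y71A12B.12 (-1.981) just outside.

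By name, 124 of the 128 members matched RefSeq (assembly WBcel235), as 121 protein-coding genes and 3 pseudogenes. Signalling genes were among them. daf-7, a TGF-beta ligand that controls dauer entry, had 26.3, 30.6 and 24.5 reads in henn-1 gonads, against 224, 219 and 197 in wild type gonads. The Notch ligand gene lag-2 had 28.5, 13.03 and 24.5 reads in henn-1 gonads, against 127, 123 and 110 in wild type gonads. The insulin-like gene ins-17 (log2 -4.16), the calcineurin B gene cnb-1 (-2.97), the octopamine receptor gene ser-3 (-2.23) and the Smad gene sma-3 (-2.15) lay below the threshold as well. The mRNA of daf-7 was at most 1.05 normalized units in any gonad library and that of lag-2 at most 3.24.

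Some families occurred more than once. F-box genes (fbxa, fbxb and fbxc) made up 5 of 128 members (3.91%) and 72 of 1897 other WAGO genes (3.8%). Genes with the sr- names of chemoreceptor families made up 7 members (5.47%) and 20 other WAGO genes (1.05%). The collagen genes col-38 and col-60, the nuclear hormone receptor genes nhr-58 and nhr-64 and the molting genes mlt-8 and mlt-11 gave 2 members each, against 7, 18 and 0 among the other WAGO genes. In the gene order of the RefSeq assembly, 11 of 124 placed members (8.87%) had another member as an adjacent gene, against 34 of 1662 placed other WAGO genes (2.05%). The adjacent members were fbxc-39 with fbxc-40, srxa-14 with srxa-15 and Y44A6B.3, R04A9.7 with R04A9.9, ZC239.20 with ZC239.21, and cpin-1 with cutl-17. The last 2 had the same value in each wild type gonad library (102, 112 and 90.0 reads). In henn-1 gonads they differed, with 11.7, 4.53 and 7.01 reads for cpin-1 and 13.2, 8.498 and 9.81 for cutl-17, and how far they share reads is uncertain. Neighbours and family members can share reads and are not independent. The authors' classes also listed 8 members among ALG-3/4 targets, genes of the male germline pathway (6.25%, against 62 or 3.27% of the other WAGO genes). ALG-3/4 loci made up 18.5% of the 7604 loci in the 4 siRNA classes, above the members' share. No member was among ERGO-1 targets, against 48 or 2.53% of the other WAGO genes, or among CSR-1 targets, against 27 or 1.42%. These classes made up 1.62% and 47.9% of the same loci, and with so low a share among the other WAGO genes a count of 0 of 128 shows little.

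Whether the members' 22G-RNAs were also low in whole embryos and animals was asked in the stage series, whose libraries the choice did not use. Whole larvae and adults include the germline, so these libraries do not measure other tissues apart from it. The 22G-RNAs of 100 of the 105 members that could be tested were lower in henn-1 animals over the 3 stages, and those of none were higher (limma with stage as a covariate, adjusted p below 0.05). With 1 library for each genotype and stage, the stages stood in for replicates. These p-values thus measure how far the genotype effect varied between stages, not between replicates of a stage. The background was 43.8% lower and 3.68% higher over all 2090 features tested. Among 1627 tested other WAGO genes, 686 were lower (42.2%) and 72 were higher. The median log2 ratio was -1.89 for the members and -0.56 for the other WAGO genes. A member with hardly any henn-1 reads passes the mean of 10 only through its wild type value. With no such filter 120 of all 128 members were lower and none higher, against 791 lower and 72 higher of 1897 other WAGO genes. With each library scaled to the same total, 62 of 101 members were lower (median -1.44). Of 1592 other WAGO genes 188 were then lower and 159 higher (median -0.03).

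Y34D9A.8 had 6.87 units in henn-1 embryos, 4.58 at 52 h and 4.10 at 68 h, against 68.99, 92.1 and 100 in the wild type libraries of the same stages. gtf-2A2 had 19.8, 2.64 and 5.93 units in henn-1 embryos, 52 h larvae and 68 h adults, against 227, 137 and 263 in wild type (log2 -4.65, SE 0.39, adjusted p = 0.00256). ins-17 had 17.9, 1.93 and 2.34 units in the henn-1 libraries, against 174, 44.5 and 118 in wild type (log2 -4.11, SE 0.38, adjusted p = 0.00256, limma). These 3 genes had the lowest ratios, and all of them were lower at each stage. At the other end, F31E9.6 had 9.35, 35.6 and 46.5 units in henn-1, against 26.4, 33.1 and 47.5 in wild type (log2 -0.44, SE 0.33, adjusted p = 0.31, limma). Its henn-1 and wild type values were close in larvae and adults, whereas in gonads it averaged 108 ± 0.63 reads in henn-1 and 459 ± 21.2 in wild type (SD, n = 3). The other members that missed the threshold were glr-4 (a glutamate receptor gene), C09E8.1, ZC239.20 and R04A9.9, with log2 ratios between -1.44 and -1.07. By stage, the members' median log2 ratio was -2.34 in embryos, -2.22 at 52 h and -2.10 at 68 h, and that of the other WAGO genes -0.70, -0.62 and -0.50, among genes with at least 10 units in either library. Across the 128 members the gonad ratio and the 68 h ratio had a Pearson r of 0.71 (Spearman rho 0.52), given as a description across genes of separate libraries.

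**Figure D2:**
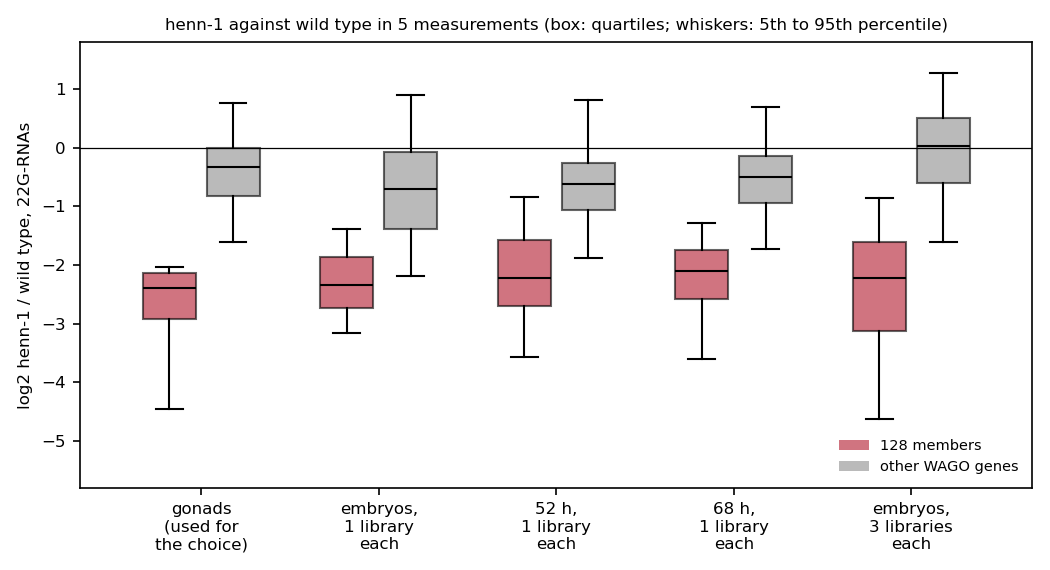
log2 ratio of henn-1 to wild type 22G-RNAs for the members and the other WAGO genes, with boxes for quartiles and whiskers for the 5th and 95th percentiles. The members' medians lie between -2.40 and -2.10 in all 5 measurements; the gonad ratio chose them, and the embryo ratios with 3 libraries each come from a fit of WAGO loci alone.

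The replicated embryo set gave the same question read counts. Members took 1.06%, 1.16% and 1.14% of all WAGO reads in henn-1 embryos, against 4.36%, 4.45% and 4.5% in wild type embryos. In rounded counts that was 3430, 2057 and 2832 member reads in henn-1 libraries, against 26448, 141713 and 155172 in wild type libraries. In henn-1 libraries only cdh-12, Y92H12A.2, F39F10.2 and F52G3.4 had more than 100 reads in any library. In a fit of WAGO loci alone, 115 of 121 tested members were lower and 1 was higher in henn-1 embryos (edgeR's quasi-likelihood test, adjusted p below 0.05). Of all 2292 loci in that fit, 29.7% were called lower and 26.5% higher. Of 1814 other WAGO genes, 508 were lower (28.0%) and 520 higher (28.7%). A member with hardly any henn-1 reads passes the low-count filter of this fit only through its wild type libraries. No fit of WAGO loci alone was run without that filter. The members' median log2 ratio was -2.22, and that of the other WAGO genes 0.03. Scaling over WAGO loci alone places most of these loci near 0. The median of the other WAGO genes and the balance of their calls were thus largely set by it.

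Scaling sets the size of these values. With the embryo piRNAs in the same fit, all 126 tested members were lower (background 32.1% lower and 53.4% higher), but so were 1828 of 1837 other WAGO genes. The medians were then -5.64 for the members and -3.39 for the other WAGO genes, beside 1.29 over all 7739 features. Without wild type library 1 they were -7.21 and -4.99, and without wild type libraries 1 and 2 -7.54 and -5.28. Single values below come from the fit of WAGO loci alone. Per the labels' protocols, wild type libraries 1 and 2 were made with a NEBNext kit, and wild type library 3 and all henn-1 libraries by stepwise adapter ligation. WAGO reads were 322443, 177654 and 248783 of 2058515, 1875727 and 1688747 WAGO and piRNA reads in henn-1 libraries. In wild type libraries they were 606072, 3187232 and 3446286 of 967644, 3626039 and 3829632. They were thus the smaller part of each henn-1 library and the larger part of each wild type one, library 3 included. In the stage series WAGO loci summed to 234831 units in henn-1 embryos and 323500 in wild type. The cause of this difference in composition was not tested. Without wild type libraries 1 and 2, 110 of 117 members were lower, 1 was higher and the median was -2.32 in the fit of WAGO loci alone.

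C05D11.13 had 3, 2 and 4 reads in henn-1 embryos, against 478, 2688 and 2800 in wild type embryos (log2 -6.07, SE 0.17, adjusted p = 3.6e-07, edgeR). In gonads its ratio was only -2.11, with 57.5 ± 6.78 reads in henn-1 and 251 ± 23.8 in wild type (SD, n = 3). exc-9 had 2, 1 and 0 reads in henn-1 embryos, against 73, 655 and 674 in wild type embryos, and gtf-2A2 had 5, 4 and 4 reads, against 345, 2183 and 2268. The 3 were low in every henn-1 library. F52G3.4 was the single member called higher, and 3 members lay above 0. It had 690, 470 and 620 reads in henn-1 embryos, against 754, 2753 and 2712 in wild type, which per 1000000 WAGO reads was 2140, 2646 and 2492 in henn-1, against 1244, 864 and 787 in wild type. The fit of WAGO loci alone gave log2 1.35 (SE 0.17, adjusted p = 2.3e-04, edgeR), and the fit with piRNAs -2.01 (adjusted p = 3.8e-04, edgeR). With reads of 22 nt alone it was 0.28 and the call was lost (adjusted p = 0.0517, edgeR). In gonads F52G3.4 had 65.8, 54.95 and 77.8 reads in henn-1, against 355, 323 and 316 in wild type, and in the stage series its embryo value was 18.8 units in henn-1 and 104 in wild type. Y71A12B.32 (log2 0.20, adjusted p = 0.39) and the molting gene mlt-11 (0.05, adjusted p = 0.898, edgeR) were the next highest and passed in neither direction. Across 121 members the gonad and embryo ratios had a Pearson r of 0.61 (Spearman rho 0.51), again as a description.

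The remaining member reads differed in length between genotypes, and to a smaller extent so did those of the other WAGO genes. Reads of 21 to 23 nt made up 76.8%, 71.9% and 75.5% of member reads in henn-1 embryos, against 86.1%, 89.0% and 88.8% in wild type embryos. For the other WAGO genes this share was 85.4%, 80.9% and 84.4% in henn-1, against 86.1%, 88.7% and 88.4% in wild type. Reads of 18 to 20 nt made up 17%, 21.5% and 18.7% of member reads in henn-1, against 12.4%, 9.61% and 9.9% in wild type. For the other WAGO genes they made up 12.9%, 17.3% and 13.7% in henn-1, against 12.4%, 9.99% and 10.3% in wild type. Reads of 24 to 28 nt made up 6.18%, 6.58% and 5.83% of member reads in henn-1, against 1.48%, 1.35% and 1.34% in wild type. For the other WAGO genes the share of 24 to 28 nt was 1.67%, 1.82% and 1.91% in henn-1, against 1.46%, 1.31% and 1.29% in wild type. Shares are over 128 members and 1842 other WAGO genes listed in the embryo tables. Much of the difference rested on F52G3.4, whose own reads of 24 to 28 nt made up 21.9%, 17.7% and 16.9% in henn-1, against 3.72%, 3.69% and 2.8% in wild type. Without this gene, an exception made after its values were seen, the members' share of 24 to 28 nt was 2.23%, 3.29% and 2.72% in henn-1, against 1.41%, 1.31% and 1.31% in wild type. The henn-1 libraries still lay above the wild type ones, wild type library 3 of the same protocol included, by less than before. The members' share of 21 to 23 nt without this gene was 84.6%, 79.0% and 81.7% in henn-1, close to that of the other WAGO genes. In wild type it was 86.8%, 89.2% and 88.9%. Reads of 22 nt made up 19.5%, 15.1% and 19.5% of F52G3.4 reads in henn-1, against 34.7%, 47.3% and 46.9% in wild type.

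The gonad mRNA libraries asked whether transcripts of these genes changed where their 22G-RNAs were lost. Few did: mRNA of 7 of the 70 members with a mean of at least 10 was higher in henn-1 gonads and that of none was lower (limma, adjusted p below 0.05). The background was 7.44% higher and 12.4% lower over 8750 features, and 100 of 1148 tested other WAGO genes were higher (8.71%) and 62 lower. At an unadjusted p below 0.05 (limma), 11 members were higher (15.7%) and 7 lower (10%). Among the other WAGO genes 192 were higher (16.7%) and 117 lower (10.2%), so the shares were alike. The median log2 ratio was 0.12 for the members, 0.08 for the other WAGO genes and 0.02 over all features. Members had low mRNA levels in general: the wild type median was 14.6 normalized units over 127 listed members, against 28.9 over 1706 listed other WAGO genes.

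fkb-5, a peptidyl-prolyl isomerase of the FKBP family, had 323, 303 and 348 units in henn-1 gonads, against 239, 246 and 211 in wild type (log2 0.48, SE 0.09, adjusted p = 0.00713, limma). txbp-3 had 183, 165 and 140 units in henn-1, against 97.2, 105 and 113 in wild type (log2 0.62, SE 0.12, adjusted p = 0.0106, limma). The cuticle collagen gene col-38 had 125, 126 and 102 units in henn-1, against 68.1, 83.0 and 56.2 in wild type (log2 0.77, SE 0.17, adjusted p = 0.0131, limma). In these 3 genes every henn-1 library lay above every wild type library. Y54G2A.19 (log2 0.37), Y82E9BR.22 (0.38), srlf-31 (0.74) and T22B7.4 (0.50, adjusted p = 0.0486) were the other 4 past the test. Leaving out 1 library left between 2 and 5 members past it, with 2 without wild type 3 or without henn-1 2. Leaving out wild type 2 or henn-1 1 left 4.

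**Figure D3:**
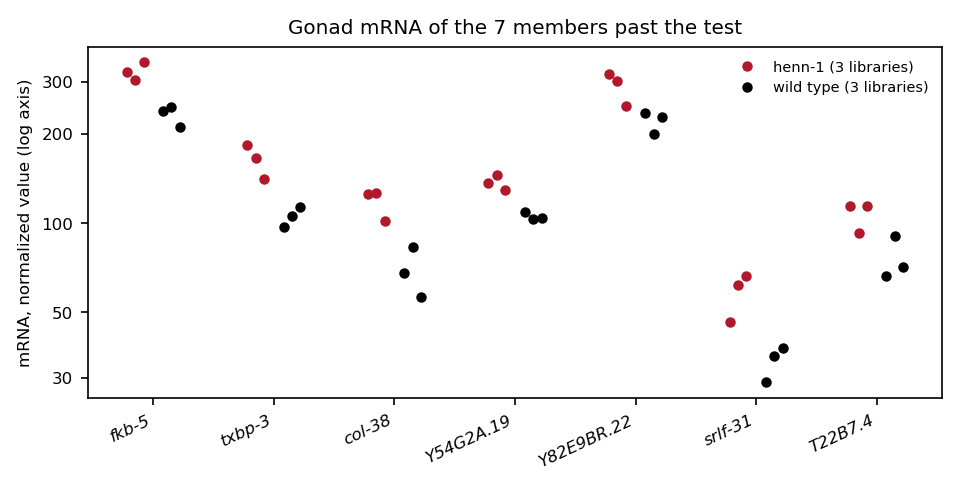
Normalized gonad mRNA (log axis) of the 7 members past the test, in 3 henn-1 and 3 wild type libraries; each point is 1 library. In all 7 genes the lowest henn-1 library lies above the highest wild type library, by the least in T22B7.4 and Y82E9BR.22.

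None of the genes shown above with the lowest gonad ratios passed the mRNA test, and some were too low to be tested. Over the 15 tested members with a gonad log2 ratio at or below -3 the median mRNA log2 ratio was 0.31 (quartiles 0.02 and 0.44). In each higher range of the gonad ratio it was between 0.05 and 0.11. These ranges were set after the values had been seen, and the difference was not tested. Y34D9A.8 averaged 5.80 units in henn-1 gonads and 9.31 in wild type, exc-9 4.05 and 3.22, and neither reached the mean of 10. gtf-2A2 averaged 69.7 units in henn-1 and 53.7 in wild type (log2 0.38, adjusted p = 0.118, limma). F39F10.2, the member with most 22G-RNAs, averaged 26.99 units in henn-1 and 48.4 in wild type (log2 -0.83, adjusted p = 0.0522, limma). Across 70 members the gonad 22G-RNA ratio and the mRNA ratio had a Pearson r of -0.10 (Spearman rho -0.04). In bulk libraries, fewer cells of a type and less RNA per cell cannot be told apart. Muscle markers moved with genotype: 6 of 9 were higher and none lower, and their sum was 1267, 1252 and 1697 in henn-1 libraries, against 863, 721 and 802 in wild type. Sperm markers summed to between 43.98 and 455, highest in henn-1 library 3 and wild type library 2, with 0 of 7 past the test. The part of either in the mRNA differences was not tested.

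The Argonautes and the small RNA machinery of the pathway were measured in the same mRNA libraries, where 12.4% of all features tested were lower and 7.44% higher. The henn-1 transcript itself had 234, 249 and 229 units in henn-1 gonads, against 2192, 2240 and 2298 in wild type. Of 10 tested WAGO Argonaute genes 6 fell and none rose, among them wago-1 (log2 -0.23), hrde-1 (-0.20) and wago-4 (-0.39). Of 19 mutator and amplification genes 5 fell and none rose, with rde-11 (log2 -0.66, SE 0.05, adjusted p = 1.0e-04, limma) the lowest. Of 17 piRNA pathway genes 1 rose and 4 fell, henn-1 itself among them, and of 11 genes of the 26G-RNA pathway 5 fell. Of 9 nuclear RNAi genes 3 fell, with hrde-1 counted here as well as among the Argonautes. None of these genes was a member. Germline and oocyte markers fell as well, 6 of 13 of them, and none rose; their part in these falls was not tested.

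IPs show which Argonaute carries a 22G-RNA, and each had 1 library, so these ratios have no test and no replicate check. In the HRDE-1 IP the members lay slightly above their input, with a median log2 IP to input ratio of 0.62, against 0.47 for the other WAGO genes. At least 2-fold higher in the IP were 19 members (14.8%) and 205 other WAGO genes (10.8%), beside 4.25% of 6074 listed features. The 19 became 9 with a pseudocount of 5 and 11 with library totals. None of the members was 2-fold lower (background 10.1%), and 121 of 128 had a ratio above 0. H39E20.1 (34.2 units in the IP, 9.93 in the input), R05G9.3 (48.6 and 17.0) and 2L52.1 (30.3 and 10.9) had the highest ratios. asah-1, an acid ceramidase gene (18.7 and 22.9), had the lowest.

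In the WAGO-1 IP the order was reversed. The members' median log2 ratio was -0.31, against 0.37 for the other WAGO genes. At least 2-fold lower in the IP were 38 members (29.7%) and 168 other WAGO genes (8.86%), beside 21.4% of 6074 listed features. At least 2-fold higher were 17 members (13.3%) and 347 other WAGO genes (18.3%), beside 8.86% of features, and 6 members with library totals. ins-17 had 6.56 units in the IP and 129 in the input, Y34D9A.8 6.23 and 62.4, and T20H12.1 9.12 and 63.99. In the HRDE-1 IP the same 3 genes were near or above their input, with 145 units in the IP and 103 in the input for ins-17, 74.4 and 60.7 for Y34D9A.8, and 82.7 and 46.9 for T20H12.1. dot-1.2 went the other way, with 236 units in the WAGO-1 IP and 68.3 in its input, and so did srxa-14 (27.1 and 8.06) and F48F5.6 (39.5 and 13.01).

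The WAGO-1 ratio was lowest where the gonad loss was largest. For the 26 members with a gonad log2 ratio at or below -3 its median was -1.31, and 57.7% were at least 2-fold lower in the IP. For the 102 members between -3 and -2 the median was -0.08 (22.5%). Among the other WAGO genes it was 0.20 for 359 genes between -2 and -1, 0.37 for 1057 between -1 and 0 and 0.58 for 481 above 0. The HRDE-1 medians of the same 5 ranges lay between 0.42 and 0.63. Over the 2025 genes the gonad ratio and the WAGO-1 ratio had a Pearson r of 0.23 (Spearman rho 0.20), and over the 128 members 0.40 (0.34), as a description of points that share 1 IP and 1 input library. The ranges were set after the values had been seen. The scaling of the IP table is not stated, and scaling all libraries to the same total gave medians of -0.61 in the WAGO-1 IP and 0.49 in the HRDE-1 IP for the members.

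**Figure D4:**
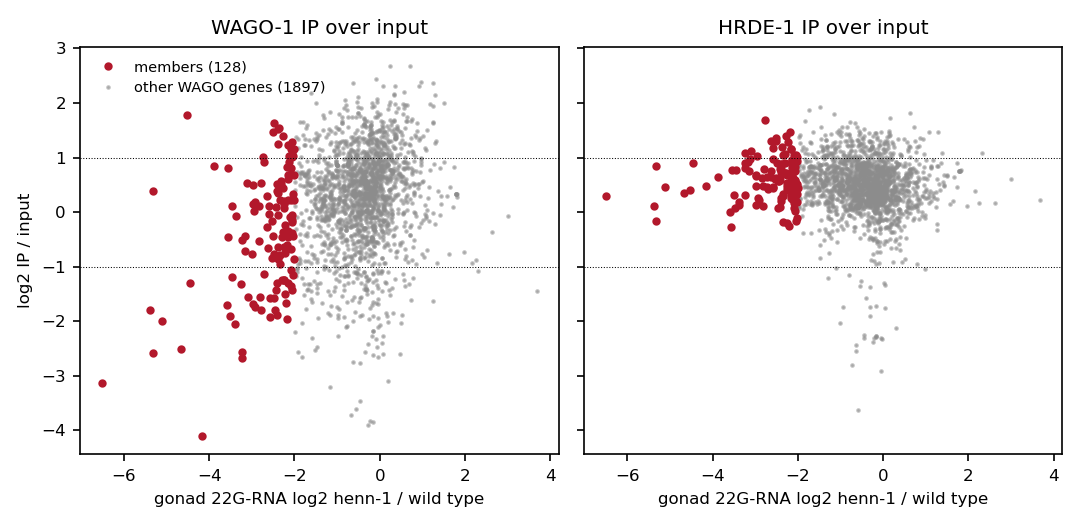
log2 ratio of IP to input in the WAGO-1 IP (left) and the HRDE-1 IP (right) against the gonad log2 ratio of henn-1 to wild type, 1 point per gene and 1 library per IP and input; dotted lines mark 2-fold. Members with the lowest gonad ratios lie mostly below -1 in the WAGO-1 panel and near or above 0 in the HRDE-1 panel.

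Periodate oxidation spares RNAs with a methylated 3′ end and was used here to ask how far the members' 22G-RNAs resisted it. In wild type animals 49 of 115 tested members were lower in the oxidized libraries and 9 were higher (limma, adjusted p below 0.05). Over all 12383 features tested 42.9% were lower and 34.9% higher. Of 1817 other WAGO genes 1186 were lower (65.3%) and 61 higher (3.36%). The median log2 ratio of oxidized to untreated was -0.60 for the members, -0.77 for the other WAGO genes and -0.32 over all features. The shift is relative to each library's scaling, and the stage labels of oxidized and untreated libraries differ, so oxidation and stage cannot be told apart.

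Single members differed widely. spds-1, the spermidine synthase gene, had 1406, 1460 and 1420 reads in oxidized wild type libraries, against 162, 132 and 139 in untreated ones (log2 3.30, SE 0.14, adjusted p = 3.0e-07, limma). Y43B11AL.1 had 188, 225 and 152 reads in oxidized libraries, against 24.3, 16.6 and 17.6 in untreated ones (log2 3.21, SE 0.32, adjusted p = 5.1e-05, limma). Both were also high in oxidized rde-1 libraries, spds-1 with 1473, 1510 and 1569 reads against 92.3, 112 and 108 untreated, and Y43B11AL.1 with 144, 231 and 116 against 17.8, 10.7 and 14.9 untreated. By contrast, gtf-2A2 had 401, 331 and 350 reads in oxidized wild type libraries, against 936, 1119 and 1142 in untreated ones (log2 -1.56, SE 0.14, adjusted p = 2.9e-05, limma). H39E20.1 was listed at 0 in all 3 oxidized wild type libraries, against 27.03, 32.3 and 27.2 reads in untreated ones. Other members with large gonad losses stayed close to their untreated value, such as Y34D9A.8 (log2 -0.15, adjusted p = 0.369), exc-9 (0.06, adjusted p = 0.844) and cdh-12 (-0.06, adjusted p = 0.582, limma).

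In rde-1 animals, mutant for a primary Argonaute needed for RNAi by exogenous double-stranded RNA, 12 of 115 members were lower after oxidation and 9 higher, beside 26% and 31.1% of 12034 features. Of 1807 other WAGO genes 456 were lower (25.2%) and 127 higher (7.03%). The medians were -0.16 for the members, -0.28 for the other WAGO genes and 0.03 over all features. spds-1 again had the highest ratio (log2 3.86, SE 0.19, adjusted p = 5.8e-07, limma). The F-box genes fbxa-178 and fbxa-13 were among the lowest, both at -1.96. The counts fell to 7 lower and 5 higher without untreated rde-1 library 2, to 6 lower without untreated library 3 and to 5 higher without oxidized library 2.

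The difference between the oxidation effects in rde-1 and in wild type was tested directly. Of 112 members 1 had a higher effect in rde-1 and none a lower one (limma interaction, adjusted p below 0.05), beside 0.0258% higher and 0.00861% lower of 11610 features. That gene was Y16B4A.2, with 634, 580 and 630 reads in oxidized rde-1 libraries, against 857, 1028 and 953 in untreated ones. In wild type it had 530, 437 and 432 reads in oxidized libraries, against 1924, 1717 and 1665 in untreated ones. The difference of effects was 1.31 on the log2 scale (SE 0.19, adjusted p = 0.0353, limma), and of the fits that left out 1 library, members passed only in those without oxidized wild type 1 (3 members) or 2 (2 members), and none in the others. No member passed with the replicate number as a block. D1025.1, F56D5.3 (3.13) and F48F5.6 (2.46) had larger differences with larger standard errors, and did not pass. The median difference was 0.40 for the members, 0.46 for the other WAGO genes and 0.48 over all features.

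**Figure D5:**
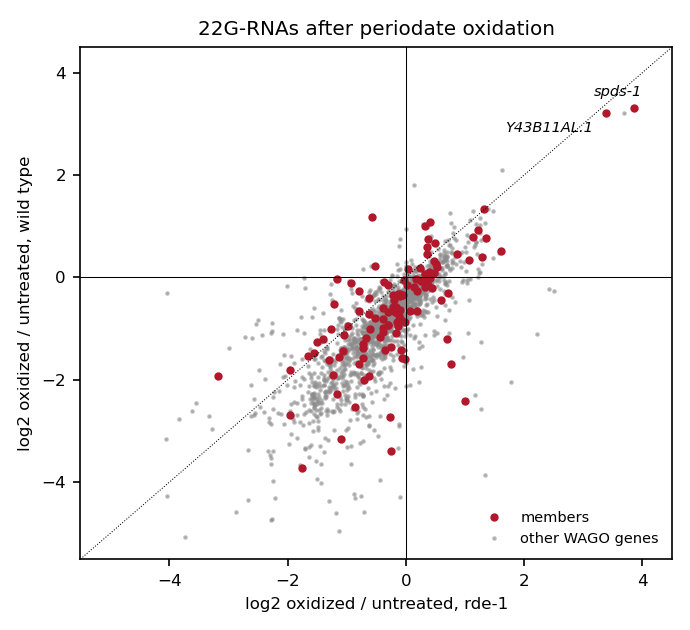
log2 ratio of oxidized to untreated 22G-RNAs in rde-1 (horizontal) and in wild type (vertical), each the mean of 3 against 3 libraries; the dotted line marks equal values. spds-1 and Y43B11AL.1 lie above 3 on both axes, and most members lie between -2 and 1.

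Untreated rde-1 and wild type levels were set side by side as reads per 1000000 listed reads, without a test because the tables were normalized separately. The members' median log2 ratio of rde-1 to wild type was -0.12 (-1.81 to 1.94), against -0.07 for the other WAGO genes. col-38 (1.94), ZK355.2 (1.81) and asah-1 (1.72) had the highest ratios, and F09F7.6 (-1.81), D1025.1 (-1.57) and F58A4.1 (-1.54) the lowest. A ratio of at least 2-fold in either direction was found for 6 members higher (4.69%) and 8 lower (6.25%), near the 5.06% and 4.53% of the other WAGO genes. Over all 23345 features, with no minimum level set, the shares were 0.814% and 1.05%. With 1 added to each level, features near 0 can hardly reach 2-fold, so these shares are not matched to the members.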

How the data were processed

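Members, lists and tests were chosen with earlier results of these data known. The submitters' processing notes name RSEM 1.3.0, STAR 2.5.0a, DESeq2 1.18.1 and Trimmomatic 0.35 for gonad mRNA, and DESeq2 alone for the gonad small RNA and oxidation tables. No source used here names the small RNA aligner or the genome build. The deposited tables hold a normalized signal per feature, of unstated scaling for stages and IPs. Gonad small RNA and oxidation values were whole multiples of a step for 100% of values (tolerance 0.1). Embryo tables hold the authors' expected counts per read length, which were summed and rounded.

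Log2 of the signal plus 1 was fitted with limma 3.58.1 (trend, mean of at least 10) in R 4.3.3. Embryo counts were fitted with edgeR 4.0.16 under TMM, with DESeq2 1.42.0 as an alternative. Benjamini-Hochberg adjustment ran over all features. Fold changes on this log2 scale understate changes of low genes. On simulated data the limma fit was tried for gonad mRNA and wild type oxidation, and the edgeR fit for embryos. The stage fit and the interaction fit were not tried in this way. The germline, muscle, sperm and epidermis markers are reported in the text; 3 tested intestine and 3 neuron markers and the 1 tested epidermis marker gave no call. Correlations of same-numbered libraries' deviations were -0.15 to 0.14 for gonad small RNA, -0.49 to 0.14 for mRNA, -0.53 to 0.35 in embryos and 0.02 to 0.24 in the oxidation sets. In no comparison were all above 0.1, so numbers were not taken to pair libraries. Replicates were grouped by title.

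Named members were the 8 lowest gonad ratios, those nearest the threshold, the 5 highest wild type levels, members past the mRNA test, the 3 extremes each way elsewhere, and genes of known role. Sets with pos-1 RNAi or microRNAs alone were not used.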

Additional observations from a re-analysis of the deposited data

Results flagged for a closer look

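Y16B4A.2 stood out because its oxidation effect differed between genotypes: the effect in rde-1 minus that in wild type was 1.31 on the log2 scale (limma interaction, adjusted p = 0.0353). The effect was -0.62 in rde-1 and -1.92 in wild type. Untreated levels were 101 ± 11.1 reads per 1000000 listed reads in rde-1 and 172 ± 1.5 in wild type (SD, n = 3). In the WAGO-1 IP the gene had 62.8 units, against 242 in the input. No member passed this test with the replicate number as a block, nor in most fits that left out 1 library. No explanation was tested.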

How the results depend on the processing

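The number of members ranged from 97 (pseudocount 5) to 183 (TMM factors), with 132 under the replicate block and 121 to 137 when 1 library was left out. Members with higher mRNA numbered 4 with no filter on the mean and 4 without wild type 2 and henn-1 3, and 2 to 5 when 1 library was left out. The replicate block gave 5 higher and 1 lower, and no filter also 1 lower. Over the stages 20 members were lower at a mean of at least 50, where fewer genes were tested, and 62 with library totals. F31E9.6 turned to 0.08 with library totals and 0.04 without embryos. In embryos 1 member was higher with WAGO loci alone, also without wild type 1 and 2. F52G3.4 was then 1.35 and 1.59, Y71A12B.32 0.20 and 0.14, and mlt-11 0.05 and 0.01. With reads of 22 nt alone F52G3.4 was 0.28, no longer called, and Y71A12B.32 0.22. edgeR on recovered reads called 14 members higher after oxidation in wild type. In rde-1, leaving out 1 library gave 6 to 13 lower and 5 to 11 higher. The difference of effects gave 0 with the replicate block and 0 to 3 when 1 library was left out. At least 2-fold higher in the HRDE-1 IP were 9 members with pseudocount 5 and 11 with library totals, and in the WAGO-1 IP 6 with library totals. The cause of these shifts was not tested. Of the counts of members, 150 alternatives kept within 1.5 times of the reported value and 33 did not. Among the 150 were counts of 0 that stayed 0, such as members higher over the stages, so the tally says little about the small counts. In the wild type oxidation set each library correlated best with its own number (3 of 3). Stage and IP values rest on 1 library per group, of unknown depth.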
